A study of Mus musculus with 29 samples.

Results

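Tubulins and the motors that walk on microtubules were examined in pyramidal neurons sorted from the mouse amygdala and medial prefrontal cortex. The genes were taken by symbol: alpha, beta, gamma and delta tubulins, kinesins and their light chains, cytoplasmic dyneins, dynactin, stathmins and katanins, pseudogenes excluded. Of 96 protein-coding symbols of this kind in the annotation, 62 were measured among the 10678 genes of the series, 61 of them among the 9872 amygdala genes and 41 among the 6080 prefrontal genes, with 40 in both. The other 34, among them Kif5a, Dync1i1, Dynll2, Stmn2, Stmn3 and Tuba1c, were not analysed here. All mice carried a transgene (B6.Cg-Tg(Thy1-YFP)HJrs/J) in which the Thy1 promoter drives a yellow fluorescent reporter in a subset of projection neurons. In the amygdala, 4 Sus-T and 4 Res-T libraries came from mice with trauma, and 2 Sus-T and 3 Res-T libraries from mice without trauma. In the prefrontal cortex there were 4 Sus-T and 3 Res-T libraries with trauma, and 2 Sus-T and 4 Res-T libraries without trauma. The labels give Sus-T and Res-T as group names without spelling them out, in a study of how efficiently mice extinguish fear, and give no age. They do not say whether each library came from its own mouse, and since only 9 mice are named for 13 amygdala libraries, the p-values measure the spread between libraries, which may be technical.

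Microtubules are hollow polymers of alpha and beta tubulin dimers, which mammals make from several genes per subunit, and the isotypes differ mostly at their carboxy-terminal tails, where enzymes modify them and motors and other proteins bind. Kinesins carry cargo along microtubules, most of them toward the plus end and so down the axon, while cytoplasmic dynein with its activator dynactin carries cargo toward the minus end and back to the cell body. Other kinesins work in cell division or in the cilium, stathmins bind free tubulin dimers, and katanins cut microtubules. Oligodendrocytes, the myelin-forming glia, also hold dense microtubule arrays along which myelin components are moved.

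The values are in arbitrary units that the authors normalized before deposit, by a method not given in the sources used here, and are levels within a gene, not between genes. Totals per library lay between 3267967 and 4021272 for amygdala and between 2095138 and 2444486 for prefrontal samples, and read depth was unknown. A change was called at an adjusted p below 0.05 in limma's test on log2(value + 1), adjusted over all genes of a region by Benjamini and Hochberg, and fold changes are on that scale, which understates changes of low genes. On the scale of log2(value - 1), the amygdala values lacked 1 of 12 possible dimensions of variation between libraries, and the prefrontal values lacked 2. Library spread may therefore be understated and p-values may be too low. The labelled cell type could be checked by few of its markers in the amygdala and could not be checked by them in the prefrontal cortex. A marker without a value cannot be read as low. Of 12 pyramidal neuron markers, the amygdala values held 4 (Camk2a, Camk2n1, Nrgn and Chn1) and the prefrontal values 0, and Slc17a7, Slc17a6 and Neurod6 were not analysed here. The 4 held 0.0597 to 0.234% of the library total in Sus-T with trauma, 0.0241 to 0.0532% in Res-T with trauma, 0.121 to 0.142% in Sus-T without trauma and 0.00808 to 0.0101% in Res-T without trauma. Oligodendrocyte markers held more, 2.01 to 7.57% of the amygdala totals over 19 of 20 listed genes and 2.65 to 9.06% of the prefrontal totals over 13 of 20. In bulk samples, fewer cells of a type and less RNA per cell cannot be told apart.

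Tubulin isotypes are hard to tell apart by their reads, so the coding ends of 6 of them are shown first. Each line gives the last 75 coding bases with the stop codon, from GENCODE M21 transcripts on GRCm38.p6. Capitals mark bases that lie in no 31-base word shared with a transcript of another gene, and lower case marks bases that do.
Tubb4a chr17:57080690-57080764, minus strand: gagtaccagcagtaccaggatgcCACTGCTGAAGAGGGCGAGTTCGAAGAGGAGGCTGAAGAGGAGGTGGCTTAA
Tubb5 chr17:35834982-35835056, minus strand: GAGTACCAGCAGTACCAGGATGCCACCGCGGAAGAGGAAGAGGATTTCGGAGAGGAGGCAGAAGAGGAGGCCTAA
Tubb2a chr13:34074468-34074542, minus strand: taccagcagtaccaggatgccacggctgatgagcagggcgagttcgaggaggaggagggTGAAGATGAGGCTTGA
Tubb2b chr13:34127471-34127545, minus strand: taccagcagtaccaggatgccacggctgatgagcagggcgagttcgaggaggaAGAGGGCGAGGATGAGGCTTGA
Tubb3 chr8:123421608-123421682, plus strand: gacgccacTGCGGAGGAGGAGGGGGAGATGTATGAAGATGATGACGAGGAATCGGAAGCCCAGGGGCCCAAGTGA
Tuba4a chr1:75215622-75215696, minus strand: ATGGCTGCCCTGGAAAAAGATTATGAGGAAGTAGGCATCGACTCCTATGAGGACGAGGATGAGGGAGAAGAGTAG

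The whole stretch was in capitals, 75 of 75 bases, in Tubb5 and Tuba4a, and most of it was in Tubb3 with 67 and in Tubb4a with 52. Tubb2b had 22 such bases and Tubb2a 16. Over all their transcripts, 77.0% of the words of Tuba1a, 68.9% of Tuba1b, 56.4% of Tubb2a, 48.6% of Tubb4b and 43.1% of Tubb2b were shared with other genes, against 1.87% for Tubb4a, 2.80% for Tuba4a, 3.21% for Tubb3, 3.24% for Tubb6 and 3.47% for Tubb5. The split of reads within the Tuba1a and Tuba1b pair and within the Tubb2a and Tubb2b pair is therefore less certain than the values of Tubb4a, Tubb5 and Tuba4a. Among the motors, Dynlt1b shared 86.9%, Dynlt1c 86.5%, Dynlt1a 71.0% and Kifc5b 51.6% of their words with other genes.

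The comparison of Sus-T with Res-T amygdala in mice without trauma asked how the groups differ in the absence of trauma. Here 22 of 61 genes were called, 36.1% of them, 11 higher and 11 lower in Sus-T, beside 27.4% of all 9872 genes, 12.4% higher and 15.0% lower. Tubulins were mostly higher in Sus-T, with 6 higher, 1 lower and a median log2 change of 1.42 over 11 genes, beside a median of -0.03 over all genes. Kinesin motors were mostly lower, with 2 higher, 7 lower and a median of -0.31 over 26 genes. Of 3 kinesin partners both light chains were higher, and dynein and dynactin gave 1 higher and 2 lower of 17 genes with a median of -0.30. The stathmin Stmn4 was the 1 call, lower, among 4 stathmins and katanins.

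**Figure D1:**
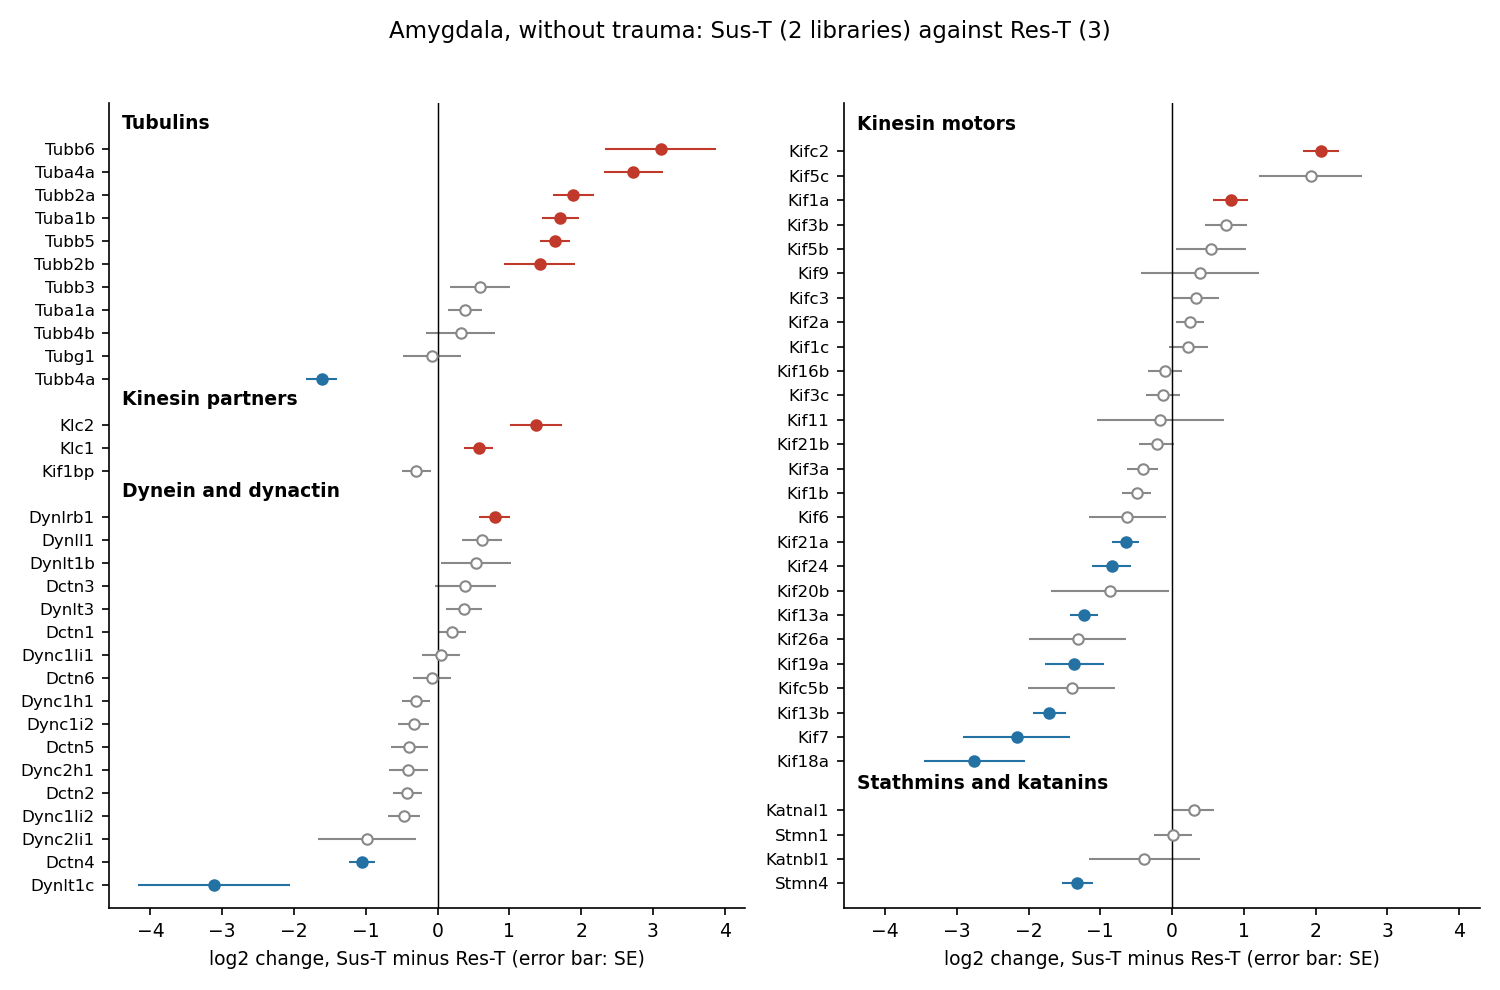
Log2 change of each of the 61 genes between Sus-T (2 libraries) and Res-T (3 libraries) amygdala without trauma, by class, with its standard error. Filled red points were called higher and filled blue points lower in Sus-T, and open grey points were not called. Tubulins lie mostly to the right except Tubb4a at -1.61, and the called kinesin motors mostly to the left except Kifc2 at 2.08 and Kif1a at 0.82.

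Tubb4a, a brain beta tubulin whose variants cause a hypomyelinating disease in humans, was the tubulin that fell. It lies at chr17:57080066-57087782, minus strand of GRCm38.p6. Its values were 3867 and 4658 in Sus-T, against 13010.0, 14639 and 11536 in Res-T. Both Sus-T libraries were below all Res-T libraries, and the fall was 3.06-fold with a log2 change of -1.61 (SE 0.21) and an adjusted p of 5.42e-05. Summed with the other 6 beta tubulins, Tubb4a made up 57.8 and 59.1% of the beta tubulin signal in Sus-T, against 91.5 to 92.2% in Res-T, a description on the deposited scale and not per length.

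The better-resolved risers were Tubb5, Tuba4a and Tubb6, and their groups did not overlap. Tubb5 (chr17:35833921-35838306, minus strand), a widely expressed beta tubulin, had 992 and 1034 in Sus-T, against 326, 335 and 312 in Res-T. Tuba4a (chr1:75214228-75219865, minus strand), an alpha tubulin in which human variants are linked to motor neuron disease, had 345 and 379.9 in Sus-T, against 52.5, 49.8 and 60.3 in Res-T. Both Sus-T libraries were above every Res-T library in Tubb5 and Tuba4a, and the log2 changes were 1.64 (SE 0.21) for Tubb5 and 2.72 (SE 0.41) for Tuba4a. Tubb6, a beta tubulin of low level here, had the highest log2 change of the tubulins at 3.11 (SE 0.78), with 84.9 and 110.4 in Sus-T, against 14, 6.49 and 12 in Res-T. The adjusted p was 4.49e-05 for Tubb5, 0.000155 for Tuba4a and 0.00662 for Tubb6.

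Among the isotypes with shared sequence, Tuba1b, a widely expressed alpha tubulin, rose 3.26-fold, with 961 and 1074 in Sus-T, against 371, 320.0 and 253 in Res-T. Its adjusted p was 0.000156. Tuba1a, the main alpha tubulin of the developing brain, had 2486 and 2238 in Sus-T, against 2263, 1968 and 1344 in Res-T, with overlapping libraries and an adjusted p of 0.259. The sum of the pair was 3447 and 3312 in Sus-T, against 2634, 2288 and 1597 in Res-T, so the groups stayed apart in the sum. The sum does not depend on the split within the pair, but reads of Tuba1c, with which Tuba1a shared 54.7% and Tuba1b 59.0% of their words, were not separated from it. Tubb2a rose 3.71-fold (adjusted p 0.000156) and Tubb2b 2.68-fold (adjusted p 0.0421), both neuronal beta tubulins. Tubb2b was uneven, with 421 and 1129 in Sus-T, against 271, 262 and 237 in Res-T, and the Tubb2a and Tubb2b sum was 956 and 1869 in Sus-T, against 451, 418 and 409 in Res-T. Tubb3, the beta tubulin used as a neuron marker, had 214 and 107 in Sus-T, against 84.9, 175 and 67.9 in Res-T and was not called. Tubb4b and Tubg1, the gamma tubulin that starts new microtubules, were not called either, at log2 changes of 0.32 (SE 0.48) and -0.08 (SE 0.40); Tubg1 was above 0 when library totals were equalized.

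**Figure D2:**
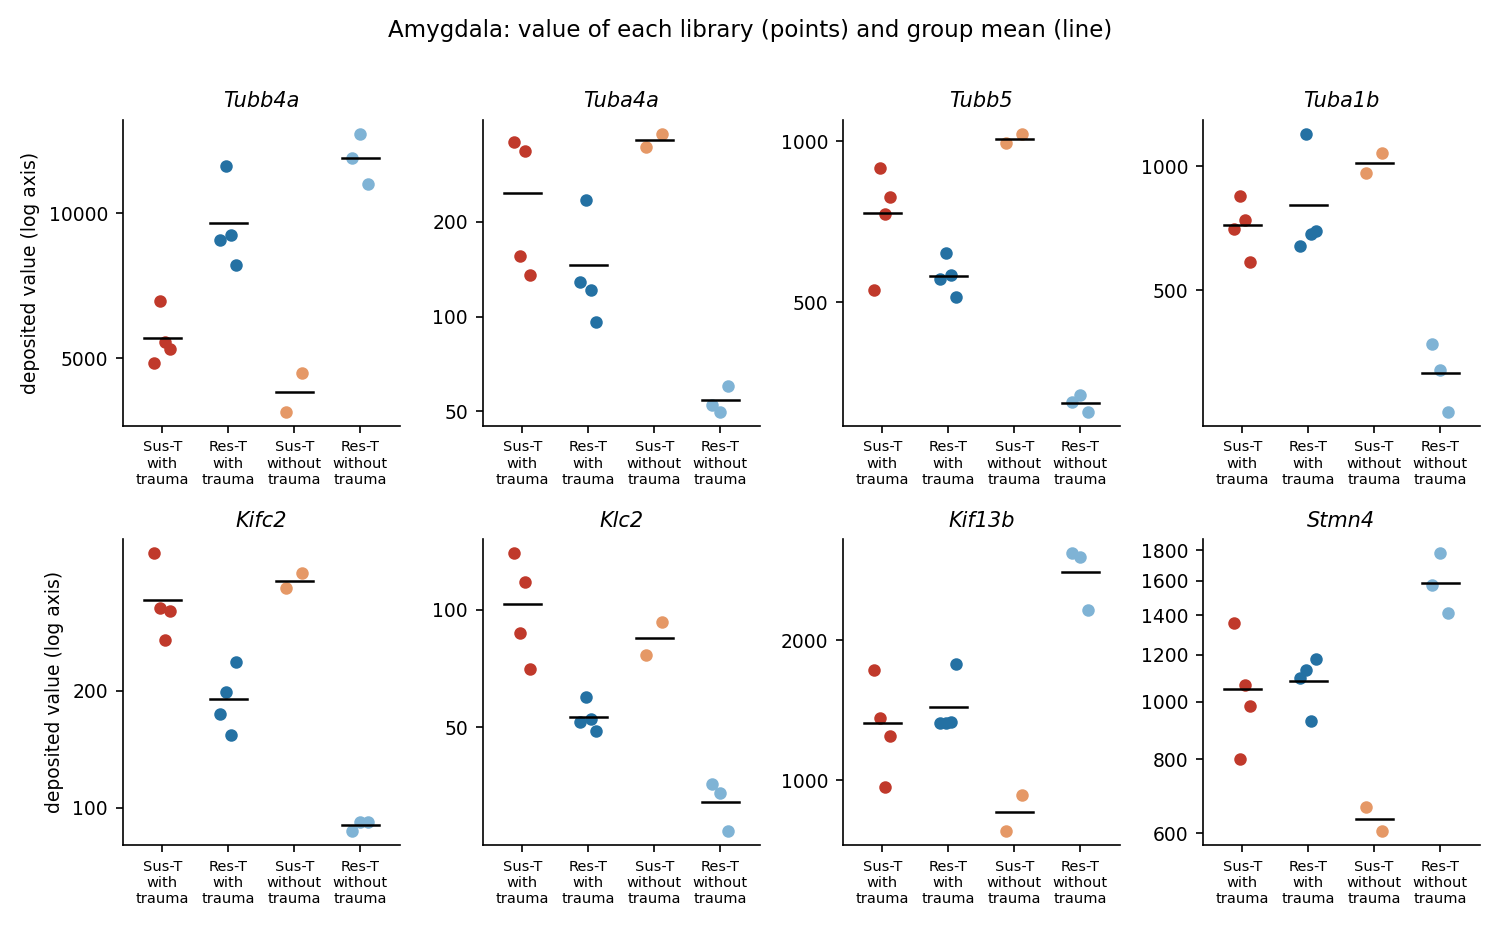
Deposited value (arbitrary units, log axis) of every amygdala library for 8 genes in 4 groups, with a line at the arithmetic mean. Without trauma, Sus-T and Res-T libraries do not overlap in any of the 8 panels, Tubb4a, Kif13b and Stmn4 being lowest in Sus-T and Tuba4a, Tubb5, Tuba1b, Kifc2 and Klc2 lowest in Res-T.

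Of the kinesin motors, Kifc2 and Kif1a rose. Kifc2 (chr15:76659858-76668196, plus strand), a neuronal kinesin with its motor at the carboxy end, had 367 and 401 in Sus-T, against 86.9, 91.9 and 91.7 in Res-T, a rise of 4.22-fold with an adjusted p of 3.09e-05. Kif1a, which carries synaptic vesicle precursors and dense-core vesicles down the axon, had 6821 and 8211 in Sus-T, against 4175, 5004 and 3670.5 in Res-T. Its rise was 1.76-fold, with an adjusted p of 0.0174 and no overlap of the libraries. The kinesin-1 heavy chains were not called: Kif5c had 2005 and 2479 in Sus-T, against 574, 743 and 467 in Res-T, at a log2 change of 1.93 (SE 0.71) with an adjusted p of 0.0607, and it was called after quantile normalization, with equalized totals and with a pseudocount of 10. The log2 change of Kif5b was 0.54 (SE 0.49). Both light chains that link kinesin-1 to its cargo rose. Klc2 had 76.4 and 93.3 in Sus-T, against 35.7, 34 and 27 in Res-T, a rise of 2.59-fold with an adjusted p of 0.00877. Klc1 had 1279.5 and 1234 in Sus-T, against 1011, 782 and 758 in Res-T, a rise of 1.49-fold with an adjusted p of 0.0425.

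Kif13b and Kif13a, related members of the kinesin-3 family that move endosomal and membrane cargo, fell. Kif13b (chr14:64647265-64809617, plus strand) had 777 and 931 in Sus-T, against 3069, 3019.9 and 2323 in Res-T, a fall of 3.27-fold with an adjusted p of 6.59e-05. Kif13a (chr13:46749087-46929867, minus strand) had 588 and 551 in Sus-T, against 1505, 1291 and 1211 in Res-T, a fall of 2.33-fold with an adjusted p of 0.000243. In both genes every Res-T library was above both Sus-T libraries. The other falls were Kif21a, a kinesin that slows microtubule growth, at -0.65 (SE 0.19), and 4 motors of division or the cilium. These were Kif18a, which aligns chromosomes in mitosis, at -2.75 (SE 0.70), Kif7, a ciliary regulator of Hedgehog signalling, at -2.16 (SE 0.75), Kif19a, which limits the length of motile cilia, at -1.36 (SE 0.41), and Kif24, which holds back cilium formation, at -0.84 (SE 0.27). Levels of Kif18a and Kif7 were low: Kif18a had 3.07 and 12 in Sus-T, against 43.1, 45.9 and 55.9 in Res-T, and Kif7 had 2.57 and 4.95 in Sus-T, against 19.2, 19.5 and 20.3 in Res-T. When library totals were equalized, Kif7, Kif19a, Kif21a and Kif24 were no longer called. Kif1b, a carrier of mitochondria and synaptic vesicle precursors, Kif3a, a motor subunit of kinesin-2, and Kif2a, which takes microtubules apart, had log2 changes of -0.49 (SE 0.21), -0.41 (SE 0.22) and 0.25 (SE 0.19) and were not called. The 17 uncalled motors ran from -1.40 in Kifc5b to 1.93 in Kif5c.

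Dynein and dynactin gave few calls. Dynlrb1, a light chain that joins the dynein intermediate chains, rose 1.74-fold, with 315 and 318 in Sus-T, against 172, 203 and 173 in Res-T and an adjusted p of 0.0116. Dctn4, a subunit at the pointed end of dynactin, fell 2.07-fold, with 506 and 624 in Sus-T, against 1081, 1309 and 1122 in Res-T and an adjusted p of 0.000438. Neither pair of groups overlapped. Dynlt1c, a light chain of the Tctex family, fell 8.63-fold (adjusted p 0.0396), with 5.28 and 33 in Sus-T, against 147, 133 and 100.3 in Res-T. The sum of Dynlt1b and Dynlt1c, which share most of their sequence, was 40.2 and 57.5 in Sus-T, against 171, 149 and 120 in Res-T, and reads of the Dynlt1f and Dynlt1a copies were not separated from it. The motor subunit Dync1h1 had 4770.1 and 5109.5 in Sus-T, against 6081, 7076 and 5169 in Res-T, a log2 change of -0.30 (SE 0.20) that was not called and was above 0 after quantile normalization. Dync1i2, Dctn1, Dctn2 and Dynll1, the cargo-binding and activating parts of the complex, had log2 changes of -0.33 (SE 0.22), 0.20 (SE 0.20), -0.42 (SE 0.20) and 0.62 (SE 0.28) with adjusted p-values from 0.106 to 0.477. The 14 uncalled dynein and dynactin genes ran from -0.98 in Dync2li1 to 0.62 in Dynll1. Stmn4, a brain stathmin (chr14:66344296-66361680, plus strand), fell 2.49-fold, with 664 and 604 in Sus-T, against 1575, 1779.8 and 1410.4 in Res-T and an adjusted p of 0.000249. Stmn1 had a log2 change of 0.01 (SE 0.26), and its groups overlapped.

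Genes that bind, modify or load microtubules were set beside the motors from a list of 102 genes, of which 88 were measured in the amygdala. Of these, 45.5% were called in Sus-T without trauma, 16 higher and 24 lower, beside 27.4% of all genes, and their median log2 change was 0.16. Higher were the dendritic protein Map2 at 2.51, Map1b at 1.05, the kinesin scaffold Mapk8ip2 at 2.22, the mitochondrial motor adaptor Trak1 at 1.73 and Nav3 at 2.82. Lower were Map7, a cofactor of kinesin-1, at -1.93, the tubulin deacetylase Sirt2 at -0.67, the tubulin polymerization protein Tppp at -0.72, Mapt at -0.68 and the dynein adaptor Bicd2 at -0.87.

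Cell-type markers moved with these groups. The 19 oligodendrocyte markers summed to 2.01 and 3.01% of the library in Sus-T without trauma, against 6.49 to 7.57% in Res-T without trauma, and 17 of them were called lower. All 4 measured pyramidal markers, 6 of 12 astrocyte markers and 3 of 3 microglia and macrophage markers were called higher. Of 6 oligodendrocyte precursor markers, 4 were called lower and 1, Pdgfra, higher. Pdgfra had 744 and 1690 in Sus-T, against 225 to 388 in Res-T. The astrocyte markers summed to 1.17 and 2.18% in Sus-T, against 0.381 to 0.579% in Res-T. With the mean log2 level of the oligodendrocyte markers as a covariate, 0 of the 61 genes were called, beside 24 of 9872. The signs of Kif18a and Dynlt1c turned in this fit. The marker level and the group cannot be told apart in these libraries. Equalizing library totals moved the median log2 change of all genes from -0.03 to 0.17 and gave 14 higher and 7 lower in place of 11 and 11. Calls over all 9872 genes were 2761 in that fit, against 2706 before. Without the Sus-T library of replicate 3 there were 14 calls, 5 higher and 9 lower. Over all 9872 genes there were then 1843 calls, against 2706 with every library.

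The same comparison in mice with trauma called 0 of 61 genes, and 0 of all 9872, by limma. At an unadjusted p under 0.05 there were 14 of the 61 genes, 23.0%, beside 11.6% of all genes, and 6 of these 14 were tubulins. Tubb4a had the smallest adjusted p at 0.0724, with 4888, 6567, 5394 and 5232 in Sus-T, against 8809, 12571, 9019.5 and 7812 in Res-T. Its Sus-T libraries were all below its Res-T libraries, at a log2 change of -0.78 (SE 0.16). Tubb4a made up 68.1 to 73.5% of the summed beta tubulin signal in Sus-T, against 83.5 to 84.3% in Res-T. Kifc2 had 451, 327, 269 and 322 in Sus-T, against 174, 198, 154 and 237 in Res-T, and Klc2 had 139.6, 87.2, 118 and 70.7 in Sus-T, against 51.5, 59.8, 52.5 and 48.9 in Res-T. Libraries of the groups did not overlap in either gene, while the log2 changes of 0.83 (SE 0.19) and 0.91 (SE 0.28) were not called. Kif11, a motor of the mitotic spindle, had 21.8, 17.6, 27.1 and 32 in Sus-T, against 2.51, 2.2, 2.54 and 12.5 in Res-T, a log2 change of 2.38 (SE 0.69) with an adjusted p of 0.185. Kif5b and Kif5c, both kinesin-1 heavy chains, were not called, and Sus-T replicate 1 stood above the other libraries in both. Kif5b had 7230.4, 2325, 1898 and 2546 in Sus-T, against 2066, 1049.5, 1963 and 3417 in Res-T, at a log2 change of 0.62 (SE 0.38). Kif5c had 7266, 1565, 1815 and 1594 in Sus-T, against 878, 347, 675 and 2494 in Res-T, at a log2 change of 1.50 (SE 0.55); the groups overlapped through Res-T replicate 4. Summed oligodendrocyte markers overlapped here, at 4.17 to 5.53% in Sus-T and 4.81 to 6.06% in Res-T, while the summed pyramidal markers given above did not. The 2 measured markers of striatal and central amygdala neurons summed to 0.00488 to 0.0276% in Sus-T, against 0.00348 to 0.00482% in Res-T, and all 12 astrocyte markers had log2 changes above 0, 5 of them at an unadjusted p under 0.05. The part of these cell types in the members' values was not tested.

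Trauma effects were compared next, within each group and between the groups. In Res-T amygdala 7 of 61 genes were called, 11.5% of them, 5 higher and 2 lower with trauma, beside 6.18% of all genes, 3.30% higher and 2.88% lower. Of 11 tubulins Tuba4a, Tuba1b and Tubb5 rose and 0 fell, with a median log2 change of 0.50, beside -0.05 over all genes. Tuba1b had 642, 1199, 686 and 697 in Res-T with trauma, against 371, 320.0 and 253 in Res-T without trauma, a rise of 2.5-fold with an adjusted p of 0.006. Tuba4a had 129, 235, 121 and 95.9 with trauma, against 52.5, 49.8 and 60.3 without trauma, a rise of 2.51-fold (adjusted p 0.0293). Tubb5 had 554, 618, 561 and 511 with trauma, against 326, 335 and 312 without trauma, a rise of 1.73-fold (adjusted p 0.016). All 4 libraries with trauma lay above all 3 without trauma in each of these tubulins. The motors Kifc2 and Dynlrb1 also rose, 2.08-fold and 1.8-fold, and Kif13b and Kif13a fell, 1.95-fold and 1.57-fold, with adjusted p-values from 0.011 to 0.0263. Kif13b had 1325, 1325, 1331 and 1776 with trauma, against 3069, 3019.9 and 2323 without trauma.

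The count rests on the 3 Res-T libraries without trauma. Leaving out replicate 1 left 1 call, beside 101 of 9872 genes. Leaving out replicate 2 or 3 left 3, beside 142 and 163 of all genes, against 610 with every library. Equalizing library totals or quantile normalization gave 6 higher and 1 lower in place of 5 and 2, beside 739 and 500 of 9872 genes. Oligodendrocyte markers summed to 4.81 to 6.06% with trauma and 6.49 to 7.57% without trauma in Res-T. With their mean log2 level as a covariate 5 genes were called, 4 of them among the 7, beside 450 of 9872 genes. Of 4 pyramidal markers, 2 were called higher with trauma.

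In Sus-T amygdala trauma changed 0 of 61 genes past the threshold, beside 0.0304% of all genes. At an unadjusted p under 0.05 there were 8 of 61, 13.1%, beside 11.8% of all genes. Stmn4 had the smallest p, with 1356, 802, 1069 and 983 with trauma, against 664 and 604 without trauma and an adjusted p of 0.136. Kif13b had 1725, 1359, 969 and 1246 with trauma, against 777 and 931 without trauma, and Dctn4 a log2 change of 0.49 (SE 0.17). The groups did not overlap in these genes, and only 2 libraries stood without trauma. All 19 oligodendrocyte markers had log2 changes above 0 here, with a median of 1.15, 17 of them at an unadjusted p under 0.05 and 1 called, and they summed to 4.17 to 5.53% with trauma, against 2.01 and 3.01% without trauma. Tubulins had a median log2 change of -0.29 here, with 1 of 11 above 0.

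The trauma effect in Sus-T minus that in Res-T was called for 10 of 61 genes, 16.4%, beside 6.74% of all genes, 4.76% higher and 1.98% lower. Of these, 6 were lower, meaning that trauma raised them less or lowered them more in Sus-T, and 4 were higher. The 6 were the tubulins Tuba4a, Tuba1b, Tubb2a and Tubb5 with the motors Kifc2 and Dynlrb1. Their trauma effects were above 0 in Res-T and below 0 in Sus-T. In Sus-T the trauma effect was not called in any of the 10 genes. Tuba4a had a log2 change of -0.69 in Sus-T and 1.33 in Res-T, a difference of -2.02 (SE 0.52) with an adjusted p of 0.0289. Tuba1b had -0.51 in Sus-T and 1.32 in Res-T, a difference of -1.83 (SE 0.33) with an adjusted p of 0.00512. The differences of Tubb2a and Tubb5 were -1.43 (SE 0.36) and -1.28 (SE 0.27), and those of Kifc2 and Dynlrb1 -1.24 (SE 0.32) and -0.98 (SE 0.28). Kif13b, Stmn4, Kif13a and Dctn4 ran the other way, with trauma effects above 0 in Sus-T and below 0 in Res-T. Kif13b had 0.61 in Sus-T and -0.96 in Res-T, a difference of 1.57 (SE 0.29) with an adjusted p of 0.00594. Stmn4 differed by 1.26 (SE 0.27) with an adjusted p of 0.0111, Kif13a by 0.98 (SE 0.25) and Dctn4 by 0.81 (SE 0.23). This difference and the comparison of Sus-T with Res-T without trauma use the same libraries without trauma.

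**Figure D3:**
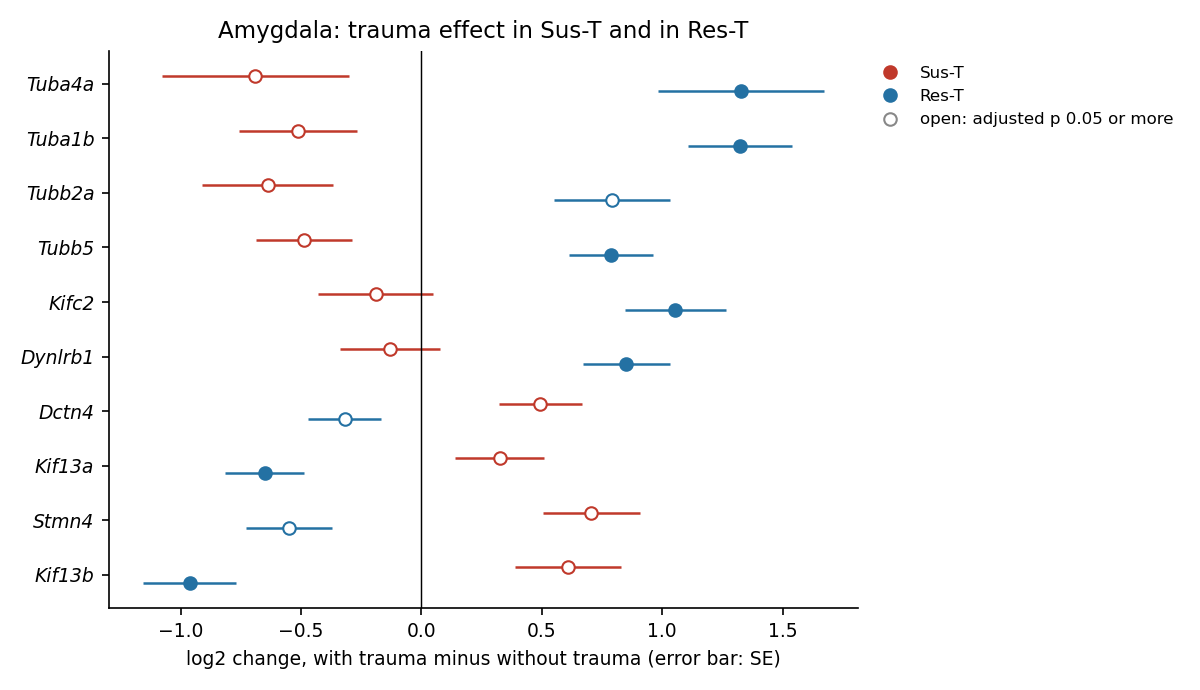
Trauma effect (log2 change with trauma minus without trauma, with standard error) in Sus-T (red) and Res-T (blue) amygdala for the 10 genes whose trauma effects differed. Filled points had an adjusted p below 0.05 within their group. The effects of Sus-T and Res-T lie on opposite sides of 0 in all 10 genes, but the Sus-T effect was not called in any of them.

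These calls rest on few libraries, and calls over all 9872 genes, 665 with every library, fell in the same fits. Among mice without trauma, leaving out Sus-T replicate 1 left 1 call, beside 59 of all genes. Leaving out their Sus-T replicate 3 left 5, beside 550. Without Res-T replicate 1 or 2 of the mice without trauma there were 4 each, beside 340 each. Without their Res-T replicate 3 there were 5, beside 379. Without Res-T replicate 3 of the mice with trauma there were 6, beside 465. Of 19 oligodendrocyte markers, 17 were called higher in the same difference. With the mean log2 level of these markers as a covariate 0 were called, beside 2 of 9872 genes. Both rescalings gave 2 higher and 7 lower in place of 4 and 6. Calls over all genes were 595 after quantile normalization and 737 with equalized totals. Equalized totals moved the median of all genes from 0.02 to -0.21.

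In the prefrontal cortex of mice with trauma, 12 of 41 genes were called between Sus-T and Res-T, 29.3%, beside 23.0% of all 6080 genes. Of these 8 were higher and 4 lower in Sus-T, beside 14.0% higher and 8.93% lower over all genes, and the median log2 change was 0.24, beside 0.15. Light chains, dynein parts and Kif1a were higher, and Tubb4a, Kif13a, Kif13b and Stmn4 were lower. Tubb4a had 3352, 3397, 3580.1 and 5294 in Sus-T, against 8837, 9802 and 6895 in Res-T, a fall of 2.2-fold with a log2 change of -1.14 (SE 0.27) and an adjusted p of 0.00821. All Sus-T libraries were below all Res-T libraries, the Sus-T library of replicate 4 being the closest. Tubb4b, a widely expressed beta tubulin, rose 1.65-fold, with 354, 273, 397 and 271 in Sus-T, against 188, 202 and 189 in Res-T and an adjusted p of 0.0489; it was not called after quantile normalization. Tuba1a, the 1 alpha tubulin measured here, had a log2 change of 0.50 (SE 0.27) and was not called.

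**Figure D4:**
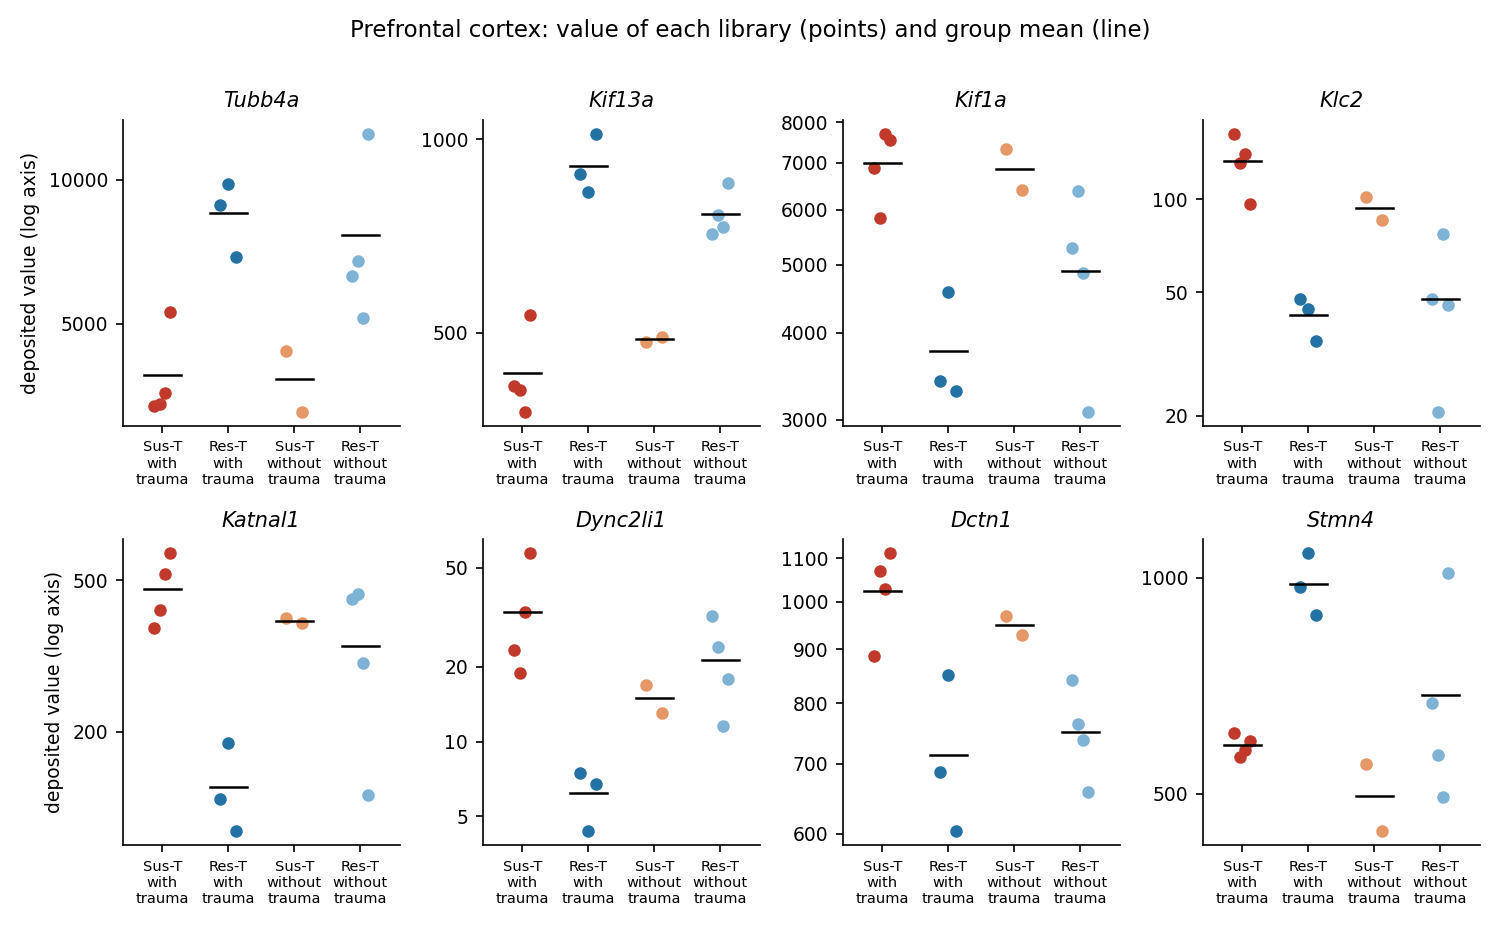
Deposited value (arbitrary units, log axis) of every prefrontal library for 8 genes in 4 groups, with a line at the arithmetic mean. With trauma, Sus-T lies below Res-T in Tubb4a, Kif13a and Stmn4 and above it in Kif1a, Klc2, Katnal1, Dync2li1 and Dctn1, with no overlap.

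Among the motors, Kif1a had 6889, 5842, 7705 and 7540.2 in Sus-T, against 3409, 4579 and 3302 in Res-T, a rise of 1.87-fold with an adjusted p of 0.0108. Klc2 had 163, 131, 139.8 and 96.3 in Sus-T, against 47.5, 44.3 and 35 in Res-T, a rise of 3.06-fold with an adjusted p of 0.0124, and Klc1 rose 1.58-fold. Kif13a had 413, 407, 376 and 533 in Sus-T, against 883, 827 and 1020.0 in Res-T, a fall of 2.11-fold with an adjusted p of 0.00191. Kif13b fell 2.39-fold, and no Sus-T library lay within the Res-T range in Kif1a, Klc1, Klc2, Kif13a or Kif13b. Kif1b, Kif2a, Kif3a, Kif21a and Kif21b were not called, with log2 changes of 0.12 (SE 0.19), 0.36 (SE 0.23), -0.13 (SE 0.22), -0.20 (SE 0.19) and -0.16 (SE 0.25).

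Dynein and dynactin gave 3 higher and 0 lower of 16 genes, with a median of 0.30. Dync2li1, a light intermediate chain of the dynein that works in cilia, had 23.4, 18.8, 33.2 and 57.2 in Sus-T, against 7.5, 4.35 and 6.76 in Res-T, a rise of 4.43-fold with an adjusted p of 0.0143 that was lost after quantile normalization. Dctn1, the dynactin subunit that grips the microtubule, had 887, 1069, 1027 and 1112 in Sus-T, against 688, 850.0 and 603 in Res-T, a rise of 1.44-fold with an adjusted p of 0.0427. Dynlrb1 rose 2.08-fold (adjusted p 0.0376), also lost after quantile normalization. Dync1h1, Dync1i2 and Dynll1 were not called, at 0.11 (SE 0.21), -0.43 (SE 0.23) and 0.77 (SE 0.29). Katnal1, a catalytic subunit of the katanin family that cuts microtubules, had 374, 419, 519 and 589 in Sus-T, against 133, 187 and 109 in Res-T. Its rise was 3.33-fold with an adjusted p of 0.00385. Stmn4 had 607, 563, 576 and 593 in Sus-T, against 969.6, 1082 and 889 in Res-T, a fall of 1.67-fold with an adjusted p of 0.0237, and Stmn1 a log2 change of 0.23 (SE 0.29). Of 68 related microtubule genes measured here, 23.5% were called, 10 higher and 6 lower, a share near the 23.0% of all genes, among them Map1b at 1.49, Map1a at 1.07, Map7 at -1.58 and Bicd2 at -0.74.

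The 13 measured oligodendrocyte markers summed to 2.78 to 4.72% in Sus-T with trauma, against 5.57 to 7.81% in Res-T with trauma. Of these, 9 were called lower. With the mean log2 level of the 13 as a covariate, 0 of 41 genes were called, beside 0 of 6080. Marker level and group cannot be told apart. Pde10a, the 1 measured marker of striatal and central amygdala neurons, was called higher at a log2 change of 1.63. Of 2 oligodendrocyte precursor markers, Pdgfra was called higher at 1.72, and Olig1 was not called. Without Res-T replicate 1 there were 6 calls, beside 624 of 6080 genes, and without Res-T replicate 4 there were 4, beside 669. With every library 1397 of 6080 genes were called. Quantile normalization, which moved the median of all genes from 0.15 to -0.01, gave 5 higher and 4 lower in place of 8 and 4. Calls over all 6080 genes were then 1252.

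The other prefrontal comparisons called 0 of 41 genes and 0 of 6080 by limma. Between Sus-T and Res-T without trauma, 4 genes had an unadjusted p under 0.05, 9.76%, beside 10.4% of all genes. Tubb4a had 4385 and 3264 in Sus-T, against 6286, 6758, 5138 and 12485 in Res-T without trauma, without overlap, at a log2 change of -0.93 (SE 0.30) and an adjusted p of 0.325. Kif13a had 484 and 493 in Sus-T, against 713, 762, 731 and 856 in Res-T, and Kif1c a log2 change of 1.01 (SE 0.34). For trauma in Res-T, 7 genes had an unadjusted p under 0.05, beside 14.8% of all genes, and 3 genes were called when Res-T replicate 4 without trauma was left out, beside 588 of 6080. Katnal1 had 133, 187 and 109 in Res-T with trauma, against 447, 459, 303 and 137 in Res-T without trauma, with overlap. For trauma in Sus-T 0 genes had an unadjusted p under 0.05, beside 1.50% of all genes, and for the difference of the trauma effects 3 had, Dync2li1, Katnal1 and Kif13b, beside 6.10%. Their differences were 2.55 (SE 0.86), 1.37 (SE 0.52) and -1.22 (SE 0.47), each with an adjusted p of 0.774.

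The Sus-T against Res-T comparisons with calls, amygdala without trauma and prefrontal cortex with trauma, share no library. Of the 40 genes measured in both regions, 13 were amygdala calls and 12 prefrontal calls, and 8 were called in both, 61.5% of the amygdala calls and 66.7% of the prefrontal calls. Over all 5274 genes measured in both, 695 were called in both, 51.0% of 1362 amygdala calls and 55.1% of 1262 prefrontal calls, all in the same direction. Higher in Sus-T in both were Kif1a, Klc1, Klc2 and Dynlrb1, which move axonal cargo or take part in dynein, and lower in both were Tubb4a, Kif13a, Kif13b and Stmn4. Klc2 had log2 changes of 1.37 in amygdala and 1.61 in the prefrontal cortex, and Kif13a -1.22 and -1.08. Kif18a and Kif7, lower in the amygdala at -2.75 and -2.16, stood at 1.12 (SE 0.68) and 0.51 (SE 0.90) in the prefrontal cortex and were not called there. The tubulins that rose in the amygdala, Tubb6, Tuba4a, Tubb2a, Tuba1b, Tubb5 and Tubb2b, were not analysed in the prefrontal cortex. The difference between the regions was not tested, and the oligodendrocyte markers were lower in Sus-T in both comparisons.

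**Figure D5:**
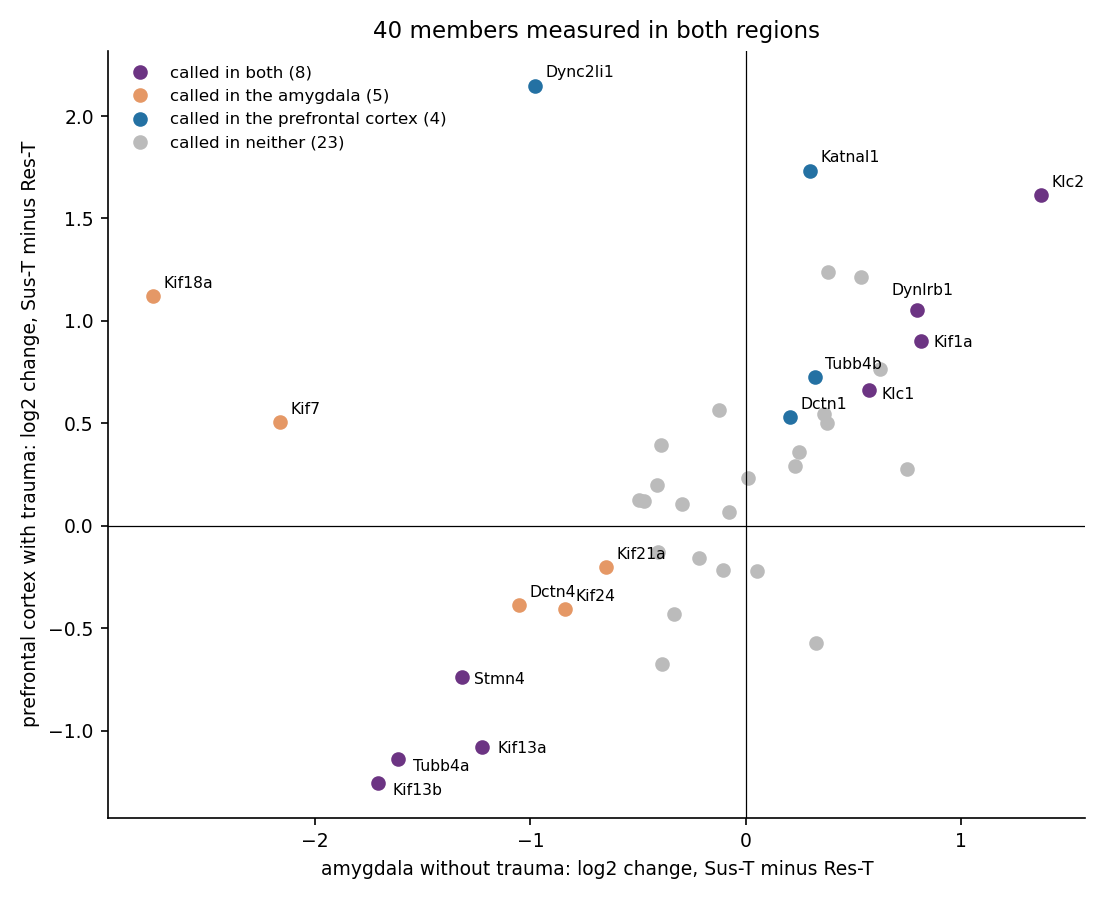
Log2 change, Sus-T minus Res-T, of the 40 genes measured in both regions, in the amygdala without trauma (horizontal) and in the prefrontal cortex with trauma (vertical). The 8 genes called in both (purple) lie to the upper right or lower left of the axes' crossing, while Kif18a, Kif7 and Dync2li1 lie to the upper left.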

How the data were processed

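RNA of sorted pyramidal neurons was measured by low-input total RNA sequencing with ribosomal RNA removal, per the labels' protocols. Per the submitters' processing notes, bcl2fastq 2.20 and Salmon 1.2 were used with GRCm38.p6. Values in the deposited tables were taken as a normalized signal of the authors in arbitrary units, made by a method not given in the sources used here; they hold no zeros, no depth and no counts. Symbols and positions came from GENCODE M21, matched by gene identifier. Of 29 described samples, 26 had columns, and 3 were not used here. Groups follow the sample titles. Values were analysed as log2(value + 1); a minimum mean of 1 removed 0 genes. A model with 4 groups per region was fitted with limma 3.58.1 in R 4.3.3, its options trend and robust being on. There were 9 degrees of freedom left and the prior ones were 8.32 for amygdala and 8.40 for prefrontal libraries, and 5 contrasts were tested per region, adjusted over all its genes. The fit was run as a self-test on simulated data with 200 changed genes and independent normal errors. Such errors were not shown to hold in these libraries, so the self-test cannot speak for the calls. The genes, lists and rules were chosen with earlier results of these data known. Named were the called genes with the smallest p, up to 12 per direction in the amygdala without trauma and 6 elsewhere, 3 per comparison where fewer than 3 were called, and a preset list of 34 symbols; others were named after their values were seen. Sequence sharing was counted in 31-base words over all GENCODE M21 transcripts. Alternatives were quantile normalization, equalized library totals, a pseudocount of 10, a minimum mean of 10, no trend and robust options, a replicate block, an oligodendrocyte marker covariate, fits of only the groups compared, and each library left out in turn.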

Additional observations from a re-analysis of the deposited data

Results flagged for a closer look

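In groups of 4 libraries, a library was set apart where its gap to the nearest other library exceeded Dixon's 95% critical value. Deposited values were used without logs. Chance alone sets apart about 1 in 20 groups where values are normally distributed, which was not tested here. Of 204 pairs of a gene and a group 23 were set apart, 18 of them in genes named by the rules above. Kifc5b, named above outside those rules, was also set apart, its replicate 2 being the highest in amygdala Sus-T with trauma at 17.3. In amygdala Sus-T with trauma, replicate 1 was the highest for Kif5b at 7230.4, Kif5c at 7266, Kif2a at 401 and Dynlt1c at 128, and replicate 2 the lowest for Katnal1 at 364. In amygdala Res-T with trauma, replicate 1 was the highest for Dynlt1c at 404 and Stmn1 at 1222, replicate 2 the highest for Tuba1b at 1199 and Tubb4b at 1059 and the lowest for Kif21b at 721, and replicate 4 the highest for Kif13b at 1776 and Kif11 at 12.5. In prefrontal Sus-T with trauma, replicate 4 was the highest for Tubb4a at 5294 and Dync1h1 at 5871, and replicate 1 for Kif18a at 40.6. In prefrontal Res-T without trauma, replicate 4 was the highest for Dync1i2 at 898, replicate 2 for Tubb4b at 419 and replicate 3 for Kif21b at 1375.

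In the amygdala 10 genes had trauma effects in Sus-T unlike those in Res-T, by the interaction term of the limma model. The effect in Sus-T minus that in Res-T, on the log2 scale, was 1.57 for Kif13b, 1.26 for Stmn4, 0.98 for Kif13a and 0.81 for Dctn4, and it was -2.02 for Tuba4a, -1.83 for Tuba1b, -1.43 for Tubb2a, -1.28 for Tubb5, -1.24 for Kifc2 and -0.98 for Dynlrb1.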

How the results depend on the processing

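No read depth was known, which limits the low genes Kif7, Kif11, Kif18a, Dync2li1 and Tubb6. Over all alternatives, 1728 of the values repeated for the named genes kept their direction and side of the threshold, 222 were no longer called, 17 became called and 15 turned their sign; for each of these the cause was not tested. Leaving out 1 library at a time gave 14 to 24 calls in the amygdala between Sus-T and Res-T without trauma. Calls over all 9872 genes were then 1565 to 3190. Trauma in Res-T amygdala gave 1 to 9, beside 101 to 724 of all genes. The difference of the trauma effects there gave 1 to 11, beside 59 to 810. In the prefrontal cortex, Sus-T and Res-T with trauma gave 4 to 14, beside 624 to 1658 of 6080 genes. Trauma in Res-T gave 0 to 3 there, beside 0 to 588. The other comparisons gave 0 calls throughout. Over all genes, trauma in Sus-T amygdala then gave 1 to 287, the highest without Sus-T replicate 3 of the mice without trauma. Amygdala Sus-T and Res-T with trauma gave 0 to 12 over all genes. For prefrontal Sus-T and Res-T without trauma this was 0 to 53. It was 0 to 3 for trauma in prefrontal Sus-T and 0 to 12 for the prefrontal difference of the trauma effects. With the oligodendrocyte covariate there were 0 calls in the amygdala without trauma, 0 for the difference of the trauma effects and 0 in the prefrontal cortex with trauma. Without the trend and robust options the difference of the trauma effects had 5 calls in the amygdala, beside 366 of 9872 genes. The difference of the trauma effects has no fit of only 2 groups, since it uses 4.

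Whether the replicate numbers pair the libraries could not be told. Deviations from the group means, for libraries with the same number, correlated from -0.446 to 0.159 over 16 amygdala pairs. Over 16 prefrontal pairs they correlated from -0.395 to 0.346, with 3 pairs above 0.1 in each region. The best correlation was with their own number in 2 of 13 amygdala and 1 of 13 prefrontal libraries. In groups of 2 to 4 libraries, deviations from the group mean are tied to each other, so these values cannot show or exclude pairing. With the replicate number as a block there were 19 calls in the amygdala without trauma, beside 2505 of 9872 genes. Trauma in Res-T amygdala gave 8, beside 677, and the difference of the trauma effects 7, beside 463. The prefrontal cortex with trauma gave 8, beside 1055 of 6080 genes, and the other comparisons 0. Beside these 0 calls stood 10 over all genes in the amygdala with trauma, 2 for trauma in Sus-T amygdala and 0 in the prefrontal cortex.

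Log2 changes that turned their sign were, in the amygdala without trauma, 0.4662 for Kif18a, 1.9038 for Dynlt1c, -0.1429 for Dctn1 and -0.0858 for Stmn1 with the oligodendrocyte covariate, 0.1107 for Tubg1 with equalized totals and 0.2387 for Dync1h1 after quantile normalization. Leaving out 1 library at a time there, Tubg1 ranged from -0.4345 to 0.2739, above 0 without Sus-T replicate 3, and Stmn1 from -0.1600 to 0.2055, below 0 without Sus-T replicate 1, at -0.0261 without Res-T replicate 1 and at -0.1468 without Res-T replicate 3. In the prefrontal cortex between Sus-T and Res-T with trauma it was 0.1266 for Dync1i2 with the covariate. Leaving out 1 library at a time there, Kif3a ranged from -0.2376 to 0.0128 (highest without Sus-T replicate 1), Dync1h1 from -0.0001 (without Sus-T replicate 4) to 0.1569 and Stmn1 from -0.0173 (without Res-T replicate 4) to 0.4454. For trauma in prefrontal Sus-T, Kif3b ranged from -0.0928 to 1.4975, below 0 without replicate 1 of the mice without trauma. Among these, Kif18a and Dynlt1c had been called.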
